A study of Homo sapiens with 8 samples.

Results

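The loci described here are short-read assembled transcripts that lay in introns of annotated genes, on the gene's own strand, with the nearest exon of that strand under 1000 bases away. They carry MSTRG identifiers, which StringTie gives to an assembled gene. Members overlapped no GENCODE exon of their strand, lay inside a gene of that strand, and reached 10 normalized counts in at least 3 short-read libraries with a span over 200 bases. Of 62727 rows in the short-read table, 927 lay in such positions, and 915 passed. Of the 12 that did not pass, 4 had a span of 200 bases or less and 8 had too few counts. The members were 577 loci downstream (3′) and 338 loci upstream (5′) of their nearest exon, in 813 host genes.

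RNA was measured in HAP1, a human leukemia line with a nearly haploid genome, with no treatment or genetic change between the groups. Nuclei were extracted with urea and detergent, and the pellet was taken as the chromatin fraction and the supernatant as the nucleoplasm fraction. Each fraction was sequenced as 3 short-read libraries, and chromatin RNA also as 2 long-read libraries that were polyadenylated by enzyme before cDNA synthesis. The fractions are operational: an RNA in the pellet is one that this extraction did not release, and all libraries come from 1 cell line.

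As a gene is transcribed, introns are cut out of the growing RNA at a GT at their 5′ end and an AG at their 3′ end. Excised introns are normally degraded within the nucleus, while the spliced RNA leaves the gene. A stable transcript assembled next to an exon can come from an intron that is still in place, from a transcript that runs past a splice site or ends in the intron, or from an independent start in the intron. An intron can also hold a processed pseudogene, which is a copy of a spliced mRNA that was pasted back into the genome with part of its poly(A) tail.

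The exon edges next to the members were mostly splice sites. Where the nearest exon belonged to the host gene and the facing edge ended no annotated transcript, GT followed the exon in 407 of 416 downstream members and AG preceded it in 249 of 250 upstream members. Over all members, exons of other genes and transcript ends included, these counts were 419 of 577 (72.6%) and 257 of 338 (76.0%). Among remote intronic loci, which lay 1000 bases or more from an exon, they were 69.9% and 70.7%. Some loci named below lay past a transcript end instead. Those in COL4A5, SETD5, CTNNB1, MIR99AHG, DIPK2A and RPL30 followed an exon that ends an annotated host transcript, with no GT after it. The following edges are shown as examples of both sides, with a locus that touched the edge or lay within 55 bases of it. The sequences are from hg38, on the gene's strand, with 20 exon bases and 40 intron bases, and capitals mark the GT or AG.
FBN3 exon then intron, chr19:8128988-8129047, minus strand: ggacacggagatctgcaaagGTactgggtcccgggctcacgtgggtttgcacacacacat
ATP11B exon then intron, chr3:182829733-182829792, plus strand: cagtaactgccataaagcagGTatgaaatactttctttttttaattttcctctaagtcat
SLC25A43 exon then intron, chrX:119406682-119406741, plus strand: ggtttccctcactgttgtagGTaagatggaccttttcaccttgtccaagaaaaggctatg
TMEM59L intron then exon, chr19:18620368-18620427, plus strand: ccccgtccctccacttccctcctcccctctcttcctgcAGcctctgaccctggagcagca
GDPD3 intron then exon, chr16:30104990-30105049, minus strand: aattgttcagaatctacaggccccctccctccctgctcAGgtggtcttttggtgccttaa
CHKA intron then exon, chr11:68054028-68054087, minus strand: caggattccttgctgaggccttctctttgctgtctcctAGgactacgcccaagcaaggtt

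The loci downstream of the FBN3 exon and upstream of the TMEM59L and GDPD3 exons touched the exon (gap of 0 bases). The ATP11B locus began 7 bases, the SLC25A43 locus 19 bases and the CHKA locus 55 bases from the edge. In all, 24 members touched their exon, 12 on each side. The median gap was 277 bases downstream and 374 bases upstream.

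Short-read depth was 38895027 to 43804918 recovered reads in chromatin and 75737601 to 79523938 in nucleoplasm. MALAT1 and NEAT1, nuclear noncoding RNAs, were higher in chromatin (log2 fold changes of 3.09 and 2.40), and the mRNAs of GAPDH and B2M were lower (-2.35 and -2.11). The BCR and ABL1 genes were expressed in all 6 libraries, as were VIM, COL1A1, EPCAM, KRT8 and KRT18, while the blood genes PTPRC, SPI1, GATA1 and CD3E were listed at 0 and CD34 stayed at 3.60 normalized counts or below.

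Which fraction held these loci was the first comparison. A locus was called when limma gave an adjusted p under 0.05 and a log2 fold change beyond 2, that is, more than 4-fold. In chromatin 671 of 915 members (73.3%) were called, against 21.2% of all 26066 tested genes, and in nucleoplasm 14 were called, against 8.47%. The median log2 fold change of the members was 3.01 (quartiles 1.92 and 3.99), and that of all tested genes was -0.02. All chromatin libraries lay above all nucleoplasm libraries in 824 members, which held for 44.6% of all tested genes, and the reverse order held in 62 members, against 46.0%. The remaining 29 members overlapped.
The minimum count bears on these numbers. It was met through chromatin alone, with under 10 normalized counts in every nucleoplasm library, by 244 members, and these had to differ. In 45 members no nucleoplasm library had more than 3 reads, and in 1 of these there were none. Of the 671 members that did not pass through chromatin alone, 441 (65.7%) were called in chromatin and 77 lay below 0, with a median of 2.72. With the libraries scaled to the ERCC standards, RNAs added to each fraction before extraction, the median of all tested genes was -1.33 and that of the members 1.77, and 400 members were called in chromatin and 48 in nucleoplasm. The same scaling called 3107 of all tested genes in chromatin and 8968 in nucleoplasm. The libraries are bulk, so a locus present in fewer cells and one with less RNA per cell cannot be told apart.

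**Figure D1:**
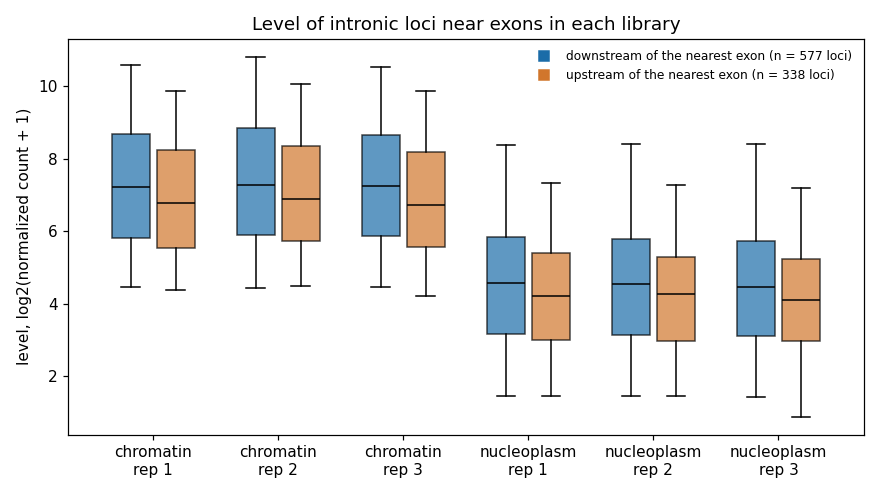
Level of the 577 downstream and 338 upstream loci in each of the 6 short-read libraries, as log2(normalized count + 1). Boxes show the quartiles and the median and whiskers the 5th and 95th percentiles over loci. On both sides of the exon the 3 chromatin medians lie above the 3 nucleoplasm medians.

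The 4 most abundant members on the downstream side included a pair in ribosomal DNA repeats of chromosome 21 that behaved unlike each other. The locus next to RNA5-8SN2, a 5.8S ribosomal RNA gene (MSTRG.20985, chr21:8213635-8220687), had 321247, 81380 and 75095 normalized counts in chromatin and 249409, 173957 and 194335 in nucleoplasm. Chromatin replicate 1 stood apart and the fractions overlapped, with a log2 fold change of -0.70 (SE 0.49, adjusted p = 0.207, limma). Without that library it was -1.38 (adjusted p = 8.38e-05, limma). The locus MSTRG.20995 (chr21:8389538-8391634) had 123071, 71304 and 85781 in chromatin while its nucleoplasm values were 2882, 3400 and 3496 (log2 fold change 4.81, SE 0.18). Ribosomal RNA was depleted before sequencing and these repeats are near-identical copies, so the counts of both are uncertain.
SAMD4A, whose protein represses translation of bound mRNAs, held the next downstream locus (MSTRG.9367, chr14:54568858-54607445). It had 7121, 8949 and 6685 normalized counts in chromatin and 305, 338 and 278 in nucleoplasm, with no overlap (log2 fold change 4.62, SE 0.11). COL4A5, a basement membrane collagen, held MSTRG.35451 (chrX:108463338-108517147), with 6647, 7995 and 6132 in chromatin and 269, 251.4 and 197 in nucleoplasm (4.85, SE 0.13). These loci span 38588 and 53810 bases of intron, and every chromatin library sat well above their nucleoplasm level.
Upstream, the most abundant locus by mean was CHKA's (choline kinase, MSTRG.5525, chr11:68054103-68061106). It had 3821, 3686 and 3867 normalized counts in chromatin and 707, 702 and 637 in nucleoplasm. Its log2 fold change of 2.47 (SE 0.06) was below the median of the members, and its spread between libraries was small. TUBGCP3, a subunit of the gamma-tubulin complex, held MSTRG.8882 with 3608, 4608 and 3536 in chromatin and 244, 226 and 227 in nucleoplasm (4.06, SE 0.10). GPHN, which encodes the scaffold gephyrin, held MSTRG.9561 with 2805, 3513 and 2681 against 72.0, 74.0 and 63.4 (5.40, SE 0.11).

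The largest fold changes among called members with a mean of at least 50 and no overlap between fractions reached 5.85. On the upstream side this was MSTRG.26399 in TMEM161B-DT, a divergent lncRNA, which had 1909, 2384 and 1939 normalized counts in chromatin and 46.5, 37.0 and 24.5 in nucleoplasm (SE 0.21). A locus in ARL15, a small GTPase, followed at 5.52. PDE10A, a cyclic nucleotide phosphodiesterase, held MSTRG.29152 (3371, 4458 and 3036 against 79.0, 89.5 and 71.8, log2 fold change 5.47). The exon nearest to the TMEM161B-DT locus was RPS3AP22, a processed pseudogene inside the intron, and that nearest to the ARL15 locus was a microRNA gene. The PDE10A locus lay before an exon that starts an annotated PDE10A transcript, with no AG before it.
On the downstream side MIR99AHG, a lncRNA that hosts microRNAs, held the largest at 5.82 (SE 0.14), with 2172, 3104 and 2267 in chromatin and 40.4, 41.3 and 47.3 in nucleoplasm. CTNNB1, which encodes beta-catenin, held MSTRG.22655 (chr3:41241154-41246162) with 416, 340 and 418 against 6.14, 6.89 and 5.91 (5.74, SE 0.14). DIPK2A (5.71) and TPD52 (5.51) held the others. These loci were picked for having no overlap between fractions, so their separation was set by the choice. The CTNNB1 and DIPK2A loci met the minimum count through chromatin alone.

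At the other extreme, members that touched their exon moved less. Downstream of the FBN3 exon (fibrillin 3), MSTRG.16345 had 83.9, 70.9 and 73.6 normalized counts in chromatin and 22.8, 18.9 and 23.7 in nucleoplasm (log2 fold change 1.76, SE 0.15, adjusted p = 5.63e-06, limma). Upstream of the TMEM59L exon, MSTRG.16711 had 151, 175 and 215 against 132, 129 and 139 (0.42, SE 0.13), and this difference turned to -0.89 under ERCC scaling. MSTRG.12333 in GDPD3, a lysophospholipase D, had 29.1, 51.6 and 58.2 against 11.4, 9.47 and 6.76 (2.18, SE 0.30). In ZNF561, MSTRG.16369 had 28.0, 43.2 and 47.2 against 14.0, 7.75 and 9.29 (1.84, SE 0.28). The fractions did not overlap in any of these 4 loci, although the fold was near or under the 4-fold limit. The GDPD3 locus fell just below that limit without chromatin replicate 3 (1.99) or nucleoplasm replicate 3 (1.995), and the ZNF561 locus passed it without replicate 1 of chromatin (2.06) or of nucleoplasm (2.058).
These 4 loci were taken from 24 members that tied at a gap of 0. The median was 2.52 in the 12 touching members downstream (7 called in chromatin) and 2.06 in the 12 upstream (6 called). Over the 24 touching members the median was 2.103, and 13 were called in chromatin. It was 2.66 at gaps of 1 to 50 bases (n = 180), 2.14 above 50 and up to 100 (n = 75), 2.78 above 100 and up to 250 (n = 120), 3.27 above 250 and up to 500 (n = 241) and 3.32 above 500 (n = 275). Beyond the limit of 1000 it went on to 3.62 below 2000 bases (n = 368), 3.97 from there to below 5000 (n = 395) and 4.75 at 5000 or more (n = 536). The members just inside the limit were MSTRG.12545 in CHD9 (gap 998 bases, log2 fold change 4.84) and MSTRG.6582 (gap 997, 4.73). Just outside were MSTRG.6118 in CBL and MSTRG.35733 in FGF13, both at a gap of 1002 bases (4.02 and 5.49). The CBL locus had 2 reads over all nucleoplasm libraries, and its ratio of 41.5 had a 95% exact counting interval of 11.02 to 350.

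**Figure D2:**
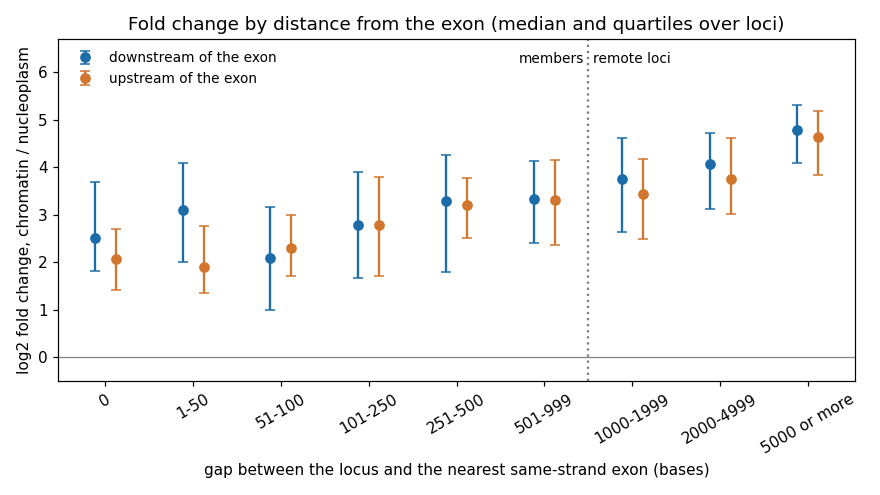
Median log2 fold change (chromatin over nucleoplasm) with quartiles over loci, by the gap in bases between the locus and its nearest same-strand exon, for loci downstream and upstream of it. Medians run from 1.91 to 3.34 among members, left of the dotted line, and reach 4.78 among remote loci.

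Members were compared with the 1299 remote intronic loci by the median level of each library. In chromatin the members' median log2 level was lower by 0.52 ± 0.09 (SD, n = 3) and in nucleoplasm it was higher by 0.54 ± 0.04 (SD, n = 3). The difference of these differences was -1.06, with the fractions fully separate and p = 0.1 in an exact two-sided permutation test over libraries, the smallest p that 3 against 3 allows. Over the 7 comparisons of this kind that were made, each had p = 0.1 and a Benjamini-Hochberg adjusted p of 0.1 (exact permutation). Of the remote loci 1147 of 1299 (88.3%) were called in chromatin, with a median of 4.21. The minimum count was met through chromatin alone by 485 remote loci, against 244 of 915 members, and these had to differ. The filter therefore bears on this contrast too.

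Intron length also went with the fold change. The introns that held the members had a median length of 5811 bases and the members covered a median of 21.5% of them, whereas the introns of remote loci had a median of 32562 bases. Among the 816 members whose nearest exon was the host's own, Spearman's rho with the log2 fold change was 0.55 for intron length, 0.45 for span, -0.34 for GC content, 0.30 for mean level and 0.18 for the gap. The rule cuts the gap at 1000 bases: over all 1983 intronic loci with the host's own exon nearest, rho was 0.59 for intron length and 0.44 for the gap. Among upstream members alone it was 0.46 and 0.30. These are descriptions across loci that share libraries, and the measures move together. By intron length the members' median was 2.06 under 2000 bases (n = 96), 2.53 from 2000 to under 5000 (n = 301), 3.40 from there to under 10000 (n = 182), 3.93 from there to under 50000 (n = 190) and 4.54 above (n = 47).
Within introns of 5000 to under 10000 bases the medians did not rise with the gap. They were 3.41 at gaps of up to 100 bases (n = 63), 3.50 above that and up to 500 (n = 65), 3.27 above 500 (n = 54) and 3.26 in remote loci (n = 174). In introns of 2000 to under 5000 bases the medians of the same 4 classes were 2.18, 2.59, 2.82 and 2.86. From 10000 to under 50000 bases they were 3.57, 3.97, 4.05 and 4.09, and above that 4.27 (n = 5), 4.53, 4.89 and 4.90. Under 2000 bases, where remote loci were absent, the member classes were at 1.66, 2.38 and 2.41. Of the 171 members with both intron ends under 1000 bases away, 59.1% were called in chromatin, with a median of 2.34. Whether length or position sets the difference between members and remote loci was not tested.

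**Figure D3:**
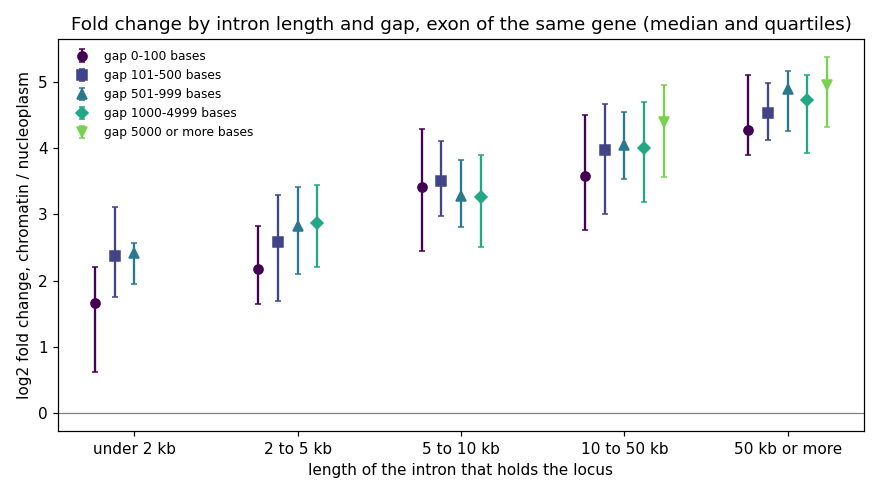
Median log2 fold change (chromatin over nucleoplasm) with quartiles over loci, by the length of the intron and, as separate symbols, by the gap to an exon of the same gene. Gaps under 1000 bases are members. Medians rise from 1.66 in the shortest introns at gaps of up to 100 bases to 4.94 in the longest at gaps of 5000 bases or more.

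Some members filled their intron. In 16 members the locus covered at least 90% of it, and 14 of these were called in chromatin. FAM98B held one of 9198 bases in an intron of 9799, with 1186, 1353 and 1391 normalized counts in chromatin and 36.9, 57.7 and 46.5 in nucleoplasm (log2 fold change 4.79). ATF1, a CREB-family transcription factor, held one of 5194 bases in an intron of 5195 (672, 676 and 725 against 120, 118 and 89.6, 2.66). OSBPL5, an oxysterol-binding protein, held the exception below 0, with 38.4, 50.4 and 48.3 in chromatin and 55.3, 63.7 and 58.3 in nucleoplasm (-0.37). Over the 16 loci the values ran from -0.37 to 5.40, the highest in GPHN.

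The sides of the exon were compared next. Downstream members had a median log2 fold change of 3.07 and upstream members 2.95, and 72.6% and 74.6% of them were called in chromatin. Downstream members were more abundant: their median level exceeded the upstream one on the log2 scale by 0.44 ± 0.06 in the chromatin libraries and 0.34 ± 0.04 in those of nucleoplasm (SD, n = 3). The difference of 0.10 between the fractions had p = 0.1 (exact permutation, the smallest possible). Limited to exons of the host gene it was 0.36, also with p = 0.1 by the exact permutation test. The sides parted most at gaps of 1 to 50 bases, where 94 of 126 downstream members (median 3.11) and 26 of 54 upstream members (median 1.91) were called. Downstream members lay in a first intron in 43.0% and upstream members in 32.8%.

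Host genes were protein-coding for 798 members, lncRNA for 97 and of other types, mostly pseudogenes, for 20. In protein-coding hosts 602 (75.4%) were called in chromatin and 8 in nucleoplasm, with a median of 3.07. In lncRNA hosts 56 (57.7%) were called in chromatin and 5 in nucleoplasm, with a median of 2.33. The difference between the host types in library medians was 0.46 ± 0.05 in chromatin, whereas nucleoplasm gave -0.48 ± 0.15 (SD, n = 3), and the fraction ratio differed by 0.94 (p = 0.1, exact permutation). Where the nearest exon was the host's own, the medians over loci were 3.08 in protein-coding hosts (n = 730) and 2.97 in lncRNA hosts (n = 69). In library medians these members differed by 0.57 ± 0.20 in chromatin and 2.06e-05 ± 0.06 in nucleoplasm (SD, n = 3). Their fraction ratio differed by 0.57 (p = 0.1, exact permutation).
A few hosts held several members. SLC25A43, a mitochondrial carrier, and ATP11B, a phospholipid flippase, held 4 each, all called in chromatin, and AGO4, an Argonaute protein, was among 13 hosts with 3. In ATP11B the log2 fold changes ran from 3.67 to 4.53. Its lowest-count locus (MSTRG.24057, whose edge is printed above) had 41.9, 81.7 and 61.5 normalized counts in chromatin and 0.878, 1.72 and 2.54 in nucleoplasm. With 6 reads over all nucleoplasm libraries, its ratio of 35.7 had a 95% exact counting interval of 16.1 to 98.8. In AGO4 the log2 fold changes ran from 3.08 to 4.10, and MSTRG.784, with 4 nucleoplasm reads, had a ratio of 27.8 and an interval of 10.5 to 104. In SLC25A43 MSTRG.35527 had 1224, 1399 and 1176 against 177, 125 and 151 (3.07, SE 0.13). Members of 1 host share its transcription and are not independent.

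Of host gene lists, those of histone modification and chromatin remodelling held 7 members in 5 of 57 genes, of which 6 were called in chromatin. For these lists the shares called are to be read beside the 73.3% of all members and 21.2% of all tested genes. SETD5, a SET-domain protein, held the most abundant (MSTRG.22294: 1504, 1867 and 1401 against 117, 130 and 94.6, log2 fold change 3.79), and KDM4C held a member below 0 (-0.53). Transcription elongation, cleavage and polyadenylation genes held 4 members, 3 of them called in chromatin, led by AFF1 of the super elongation complex (568, 682 and 596 against 17.6, 7.75 and 17.7, 5.41). DNA damage response genes held 3, all called in chromatin, in ATRX, MSH3 and RAD52. The ATRX locus had 3869, 4374 and 3237 in chromatin and 316, 219 and 194 in nucleoplasm (3.99). Hosts with a ZNF symbol, mostly zinc finger genes, held 29 members, 20 called in chromatin (69.0%) and 1 in nucleoplasm, with a median of 2.57 against 3.01 for all members. The list takes in the antisense RNA genes ZNF529-AS1 and ZNF710-AS1, whose members were not called (0.61 and -0.48). ZNF507 led in level (966, 1337 and 947 against 42.1, 45.6 and 32.1, 4.72). No member lay in the 45 SR and hnRNP splicing factor genes or the 28 nuclear pore and export genes.

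Each locus was next set against its own host gene, as the difference of their log2 fold changes, for the 817 members whose host had a tested row. Of these, 680 (83.2%) were higher in chromatin than their host by over 2-fold at an adjusted p under 0.05 (limma), and 32 were lower. The 817 include members that met the minimum count through chromatin alone, whose own fold change had to be above 0. Over all 1987 intronic loci with a tested host the shares were 87.5% higher and 2.92% lower. The median difference was 2.997 and the median host fold change was -0.08. Across members the host's fold change and the locus's own had a Spearman's rho of 0.03.
The largest differences were at RPL30, a ribosomal protein gene, and GTF2E2, a subunit of TFIIE. In RPL30 the locus was at 4.53 and the gene at -2.37, a difference of 6.90 (SE 0.32). This locus lay past an exon that ends an annotated RPL30 transcript. In GTF2E2 a pair of loci were at 4.91 and 4.72 and the gene at -1.95. Both loci of this pair met the minimum count through chromatin alone. In CTNNB1 the locus was at 5.74 and the gene at -0.60, while in MIR99AHG the locus at 5.82 lay above a host that was itself at 3.65. In lncRNA hosts the median host fold change was 1.07 and 37 of 77 loci were higher than their host, against 634 of 722 in protein-coding hosts. CHKA's locus, at 2.47 with its gene at 1.59, did not pass the 2-fold limit (difference 0.89, SE 0.15).

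**Figure D4:**
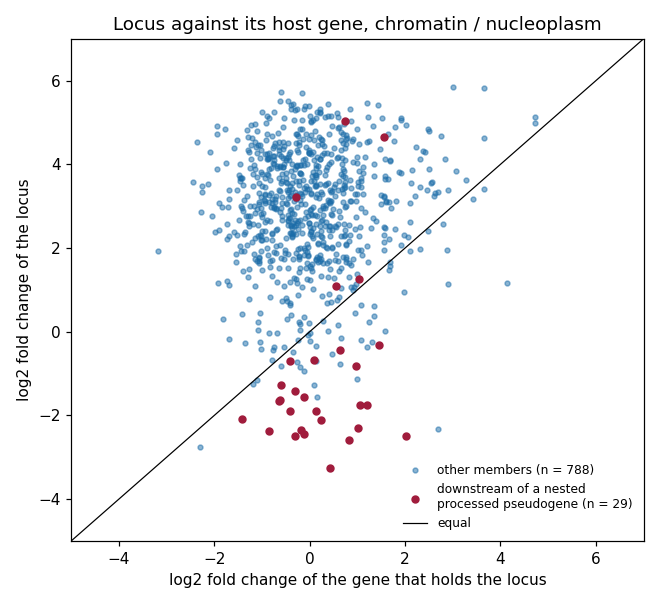
Log2 fold change (chromatin over nucleoplasm) of each locus against that of the gene that holds it, for 817 members with a tested host row. The line marks equal values. Most points lie above it, and 29 loci downstream of a nested processed pseudogene, in red, lie mostly below.

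The members called in nucleoplasm lay mostly beside processed pseudogenes. The nearest exon belonged to a gene other than the host in 99 members, and in 50 of these to a processed pseudogene nested in the intron. Of the 45 that lay downstream of the pseudogene, 39 were below 0, 12 were called in nucleoplasm and 3 in chromatin, with a median of -1.63 and a median span of 321 bases. The other 38 of the 77 members below 0 did not lie downstream of such a pseudogene. The 5 members upstream of such a pseudogene were all above 0, with a median of 3.51. Remote loci downstream of a nested processed pseudogene (n = 20) had a median of 4.00. In library medians, the 45 loci were lower than the 506 members downstream of a host exon in chromatin (-1.10 ± 0.29, SD, n = 3) and higher by 3.26 ± 0.20 in nucleoplasm (SD, n = 3). The fraction ratio differed by -4.36 (p = 0.1, exact permutation). This split was chosen after the values were seen.
The lowest was next to COX7BP3, a copy of the COX7B mRNA, in an intron of TCEANC2 (MSTRG.1164, chr1:54090112-54090548), among the 14 called. It had 78.0, 64.9 and 85.6 normalized counts in chromatin and 733, 729 and 727 in nucleoplasm (log2 fold change -3.25, SE 0.11, adjusted p = 1.92e-08, limma). Next to CKS1BP1 in BDKRB2, MSTRG.9925 (chr14:96223371-96223670) had 127, 91.3 and 143 against 749, 719 and 727 (-2.62, SE 0.15). Next to SETP21 in PDE4D, MSTRG.26117 had 40.8, 44.4 and 45.0 against 269, 252 and 275 (-2.59, SE 0.10).
The loci beside HNRNPA1P2 (-2.48) and ST13P4 (-2.49) followed. A further called locus, MSTRG.8241, lay inside HNRNPA1P30, itself a transcribed processed pseudogene and here the host (46.6, 43.2 and 57.1 against 333, 341 and 335, -2.76). Only MSTRG.25344 of the 14 lay upstream of its exon and beside no pseudogene, in the lncRNA gene ENSG00000251388 (24.5, 18.01 and 16.5 against 104, 97.3 and 103, -2.33, SE 0.17). The lowest fitted value of all, -3.54 at HMGN1P4 (MSTRG.2591), was uneven: 0, 0 and 117 in chromatin and 432, 0 and 434 in nucleoplasm, and it did not pass (adjusted p = 0.227, limma).

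Sequence was read for copies of mRNA in the loci themselves. Each member was divided into all its 50-base words, 50 bases being the read length, and the share found exactly, on the same strand, in a GENCODE protein-coding transcript of a gene other than the host was counted. The share was at least 10% in 51 members, a limit set after the values were seen. Of those 51, 47 were below 0, 13 were called in nucleoplasm and 1 in chromatin, with a median of -1.56. They included 38 of the 45 loci downstream of a nested processed pseudogene and 13 of the 14 members called in nucleoplasm. Of the other 864 members, 670 were called in chromatin and 1 in nucleoplasm, the COX7BP3 locus, which shared 3.87% with COX7B. Their median was 3.11.
The gene that shared most words was often low in chromatin too. It had a tested row for 47 of the 51 loci, and was below 0 in 35 of them. Of all 26066 tested genes 13143 were below 0. MSTRG.9925 shared 69.7% of its words with CKS1B, which was at -2.43. The locus beside CBX1P1 (-2.31) shared 33.9% with CBX1 (-2.32), and that beside ST13P4 shared 57.1% with ST13 (-2.11). MSTRG.25344 shared 15.8% with SNX3, which was at -2.98. Over the 47 loci, the locus and the gene had a Spearman's rho of 0.75, and 31 were within 1 log2 unit of each other. The locus was the lower of the pair in 41 of 47, with medians of -1.41 for the loci and -0.72 for the genes. The member called in chromatin, in NPIPB3, shared 93.2% with NPIPB5, a paralog at 3.01. Reads of such stretches have the same letters at both places, so the counts of these 51 loci are uncertain and the place of origin cannot be told apart.

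**Figure D5:**
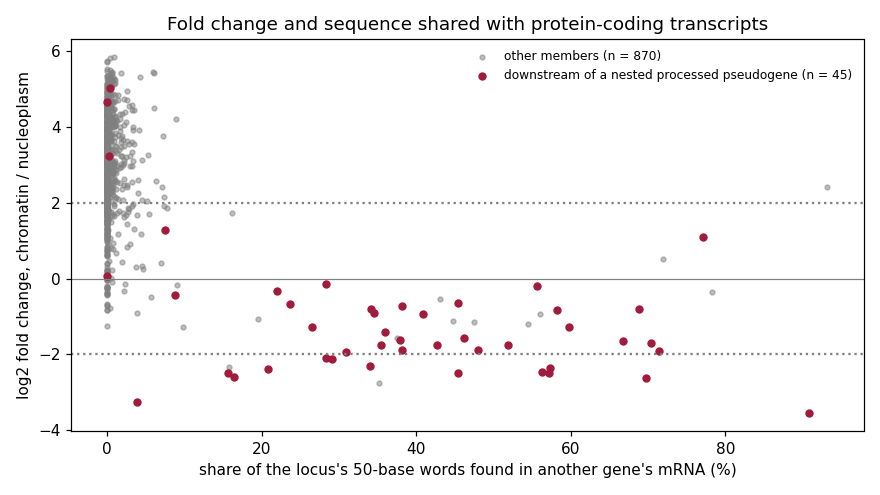
Log2 fold change (chromatin over nucleoplasm) of all 915 members against the share of their 50-base words that occur in a protein-coding transcript of another gene, in percent. Dotted lines mark log2 fold changes of 2 and -2. Of the 51 loci at 10% or more, 47 lie below 0.

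The 3′ ends were searched for marks of a copied poly(A) tail, which most of these loci did not hold. A run of at least 10 A lay within 50 bases of the 3′ end in 7 of 45 loci (15.6%) downstream of a nested processed pseudogene, and in 19 of 816 (2.33%) members beside an exon of their host. An AATAAA or ATTAAA, the polyadenylation signal, was in the same window in 10 of 45 (22.2%) and 68 of 816 (8.33%). Among the 20 remote loci downstream of such a pseudogene, whose median fold change was 4.00, an A run lay in 3 (15.0%) and a signal in 7 (35.0%). Over all 2214 intronic loci these shares were 3.25% and 11.3%. The windows below are examples that hold a signal and a run of at least 9 A. They are from hg38 on the locus's strand, with its last 50 bases followed by the next 50, and capitals mark these letters.
MSTRG.6676 in PDE3A, chr12:20554311-20554410, plus strand: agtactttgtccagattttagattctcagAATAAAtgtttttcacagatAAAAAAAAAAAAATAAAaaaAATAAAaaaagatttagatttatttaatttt
MSTRG.2636 in ENSG00000285280, chr1:192246182-192246281, minus strand: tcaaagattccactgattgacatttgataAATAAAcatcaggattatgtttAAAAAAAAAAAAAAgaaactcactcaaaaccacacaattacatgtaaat
MSTRG.9242 in LINC02307, chr14:44119368-44119467, minus strand: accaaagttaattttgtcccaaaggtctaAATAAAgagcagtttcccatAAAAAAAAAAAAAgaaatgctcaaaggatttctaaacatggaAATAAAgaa
MSTRG.8590 in DLEU1, chr13:50173539-50173638, plus strand: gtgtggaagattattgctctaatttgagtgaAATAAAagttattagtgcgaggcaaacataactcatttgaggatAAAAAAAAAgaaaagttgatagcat
MSTRG.23768 in ANKUB1, chr3:149938643-149938742, minus strand: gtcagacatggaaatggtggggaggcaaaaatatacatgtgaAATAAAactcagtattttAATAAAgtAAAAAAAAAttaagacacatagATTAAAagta

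The first of these, MSTRG.6676, had 260, 213 and 291 normalized counts in chromatin and 773, 791 and 830 in nucleoplasm (log2 fold change -1.66, SE 0.11), and shared 66.7% of its words with UHRF1, which was at -1.65. A match to these letters is a description of the window and not of a cleavage event.

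Long reads of chromatin RNA gave spans of assembled transcripts without their exons, so only positions could be compared. The span of a same-strand transcript with a TPM above 0 in either library overlapped 865 of 915 members, and one of either strand overlapped 882. By rule the members lie inside a gene of their strand, and spans include introns. A host transcript's span can therefore overlap a locus without holding its sequence, and these counts do not show that the locus was read. Reads of this kind of cDNA library carry no strand until one is assigned, and whether that was done for this table is not given in the sources used here, so the same-strand counts that follow are uncertain. A transcript that overlapped the locus and no annotated exon of its strand was found for 129 members (14.1%), against 362 of 1299 remote loci (27.9%). In MECOM, a zinc finger transcription factor gene, 6 such transcripts summed to 28.0 and 15.9 TPM in the 2 libraries, over a locus at 5.44. In ANKRD17 1 such transcript had 11.8 and 8.55 TPM, over a locus at 4.27.
A transcript that took in the facing edge of the nearest exon and had its other end inside the intron was found for 49 members (5.36%). The share was similar in remote loci, at 62 of 1299 (4.77%). In STAM, an endosomal sorting adaptor, such a transcript had 67.8 and 67.0 TPM, over a locus 693 bases downstream of an exon at a log2 fold change of 3.49. In SLC25A43 the span of a transcript at 401 and 829 TPM overlapped both MSTRG.35536 and the edge of the next exon. At SCRN1, whose locus touched its exon (1.17), such a transcript had 14.7 and 7.88 TPM. Spans do not show whether the locus and the exon are in the same RNA. The long-read table holds no nucleoplasm libraries, so it gives no fraction ratio.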

How the data were processed

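RNA from HAP1 nuclei was measured in 6 short-read libraries (3 of chromatin, 3 of nucleoplasm) from cultures described as independent, and 2 long-read libraries of chromatin. Groups came from the sample titles, since a label field names chromatin for the nucleoplasm libraries as well.

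The authors aligned 50-base single-end reads from directional libraries with HISAT2 2.1.0 to hg38 with the ERCC sequences, assembled them with StringTie guided by a reference annotation, and divided gene counts by DESeq2 size factors. The deposited short-read values are this normalized signal per gene, not pooled over replicates. The authors aligned long reads with minimap2 and assembled them with StringTie; a strand assignment before mapping is described for some analyses, and whether it was used for this table is not given in the sources used here. The deposited long-read values are TPM, which hold no depth. All value columns belonged to a library. Reads recovered as whole multiples of the smallest value made up 100% of nonzero values in all 6 short-read libraries (tolerance 0.001 reads). Intervals and floors cover counting error only.

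Rows were placed against GENCODE release 44 on hg38. The gap is the number of bases between locus and exon. Rows longer than 200 bases that reached 10 normalized counts in 3 or more libraries were tested (26066) with limma 3.58.1 (R 4.3.3), with a trend, on log2(normalized count + 1), which understates the change of low genes, with Benjamini-Hochberg adjustment. The files hold normalized values, so this was the main test, with count tests on recovered reads as alternatives (edgeR 4.0.16, DESeq2 1.42.0). The host row was the tested row that matched the gene best (Jaccard index of spans at least 0.5). Group medians were compared per library by exact two-sided permutation tests, which do not use the culture that libraries of both fractions share. Alternatives were other pseudocounts, filters, scalings, gap limits, a replicate block and each library left out. The scripts were tested on simulated data. The short-read replicates are separate cultures per the labels, and p-values measure the spread between them.

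Named loci were, on each side, the 4 of highest mean, the 4 largest folds, those called in nucleoplasm (up to 6), the pair nearest an exon, those beside the distance limit, the most abundant in each host list, the members of the 3 hosts with most members and the 3 extremes against the host. Others were named after their values were seen, such as those in the paragraphs on shared sequence, long reads and whole introns. The members and lists were chosen with earlier results of these data known. Of the loci that the naming rule picks, 1 is not reported here.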

Additional observations from a re-analysis of the deposited data

How the results depend on the processing

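Over the alternatives to the scale, the median log2 fold change of the members, 3.01 as reported, was 3.10 with a pseudocount of 0.5, 2.52 with 5, 3.44 with equal library totals, 1.77 with equal ERCC totals, 3.12 with edgeR and 3.21 with DESeq2 on recovered reads. A mean of at least 50 normalized counts gave 3.23 with 435 members called in chromatin and 449 higher than their host, in a smaller set of members. Equal ERCC totals called 400 in chromatin and 48 in nucleoplasm, and equal library totals called 7 in nucleoplasm; these scalings also moved the median of all tested genes, to -1.33 and 0.44. The locus in TMEM59L changed sign to -0.89 with equal ERCC totals. A limit of 500 bases gave a median of 2.82 with 441 called in chromatin, and 2000 bases gave 3.20. With the nearest exon in the host gene 2 members were called in nucleoplasm, and with under 10% shared words 1, at a median of 3.11; both choices were made after seeing the data. The difference between the sides had p = 0.4 by the exact permutation test at the 500-base limit. Leaving out 1 library gave 665 to 673 called in chromatin, 13 to 15 in nucleoplasm and a median of 2.97 to 3.05; an arm then holds 2 samples.

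The fractions share replicate numbers and came from 3 cultures, so libraries of the 2 fractions are tied by culture, but the labels do not say that a number marks a culture. Deviations of same-numbered libraries correlated at 0.087, 0.053 and 0.063, each the highest for its number, a hint from the data and not from the design. With the replicate block 671 members were called in chromatin and 15 in nucleoplasm. The host comparison was not run with edgeR, DESeq2 or without the filter. Depth limits the low loci most: 45 members had at most 3 reads in every nucleoplasm library.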
